A study of Mus musculus with 12 samples.

Results

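The vincristine (VCR) main effect compares every tumor of the study by whether its mouse received vincristine, averaged over the presence or absence of the FOXM1 inhibitor RCM1. Members were chosen by the group named in each sample's title, which took in 12 of 12 tumors. The 6 tumors given vincristine were those of the VCR group (m4, m5, m6) and of the VCR + RCM1-NP FA group (m10, m11, m12), and the 6 not given it were those of the vehicle group (m1, m2, m3) and of the RCM1-NP FA group (m7, m8, m9). Rd76-9 is a mouse embryonal rhabdomyosarcoma line, and its cells were injected into the flank of C57/Bl6J mice with the genotype WT, aged 8 to 12 weeks. From day 7, mice received 0.25 mg/kg VCR or saline intraperitoneally every 7 days, and 8 µg RCM1 in folic acid nanoparticles (RCM1-NP FA) or empty nanoparticles intravenously every 48 hours. Vehicle mice thus received saline with empty nanoparticles, and VCR mice received the drug with empty nanoparticles. Below, treated and untreated tumors are those given and not given vincristine, so the untreated tumors include those given RCM1-NP FA. RNA of the bulk tumors, host cells included, was sequenced at day 16. The treatment label of the vehicle tumors also names RCM1 nanoparticles, so the groups follow the titles. All tumors came from a single implanted line, which limits the model to that line.

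Total estimated counts were 31615720, 29342195 and 30905970 in the vehicle tumors m1, m2 and m3, and 30271504, 31497456 and 32108055 in the RCM1-NP FA tumors m7, m8 and m9. They were 31608334, 31373097 and 30348808 in the VCR tumors m4, m5 and m6, and 32049539, 30610526 and 31212431 in the VCR + RCM1-NP FA tumors m10, m11 and m12. Depth was therefore alike with vincristine (median 31292764) and without it (median 31201713). Levels below are given as CPM, the counts of a gene scaled to the size of the library after TMM normalization, and changes are log2 fold changes of vincristine minus no vincristine with their standard errors (SE). Of the myogenic lineage that the line comes from, *Cdh15*, the muscle cadherin, was present in all 12 tumors and ranged from 125 to 202 CPM. The diagnostic muscle regulators were low, since *Myod1* was at 0 in 3 tumors and at most 2.38 CPM, and *Myog* was at 0 in 2 tumors and at most 2.16 CPM.

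Vincristine is a vinca alkaloid that binds tubulin, blocks the assembly of microtubules and arrests dividing cells in mitosis. Cells with unresolved spindles can die through the mitochondrial BCL2 pathway, and P-glycoprotein pumps the drug out of cells. It is a standard drug in rhabdomyosarcoma, and the study examined RCM1 combined with a low dose of it.

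Averaged over both RCM1 backgrounds, the clearest difference was a lower level of *Tfrc*, the transferrin receptor that brings iron into cells, in all 6 tumors given vincristine. *Ciart*, a repressor within the circadian clock, was also lower in all 6. *Vegfa*, the angiogenic factor induced by hypoxia, was lower in the mean with 1 tumor overlapping. These 3 genes fell in DESeq2 (Benjamini-Hochberg adjusted p under 0.1), which is 0.017% of the 17602 genes tested. No gene passed edgeR's quasi-likelihood test at the same threshold (0 of 17602, 0%), where the smallest adjusted p was 0.655, and none passed limma-voom, where it was 0.601. At an unadjusted p under 0.05, edgeR gave 1300 genes, 641 higher (3.64%) and 659 lower (3.74%). Leaving out the RCM1-NP FA tumor m9 alone changed the number of genes called by edgeR from 0 to 318, with 283 genes higher (1.61%) and 35 lower (0.199%), and *Tfrc*, *Ciart* and *Vegfa* were among the 35.

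*Tfrc* stood at 106, 153 and 90.5 CPM in the vehicle tumors and at 103, 158 and 84.4 CPM in the RCM1-NP FA tumors. With vincristine it stood at 70.6, 52.0 and 67.6 CPM alone, and at 69.1, 55.9 and 50.6 CPM with RCM1-NP FA. Every tumor given vincristine was below every tumor not given it, and the vehicle and RCM1-NP FA tumors covered the same range. The change was -0.93 (SE 0.17), with -0.90 in the absence of RCM1 and -0.97 in its presence. DESeq2 gave an adjusted p of 0.000186 and edgeR gave 0.655. The gene lies on chromosome 16 at 32608896 to 32632794 (GRCm38).

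*Ciart* ranged from 8.70 to 10.1 CPM with a median of 9.53 CPM in the 6 tumors given vincristine. Without vincristine it ranged from 10.9 to 24.8 CPM with a median of 17.2 CPM. The groups did not overlap, but the vehicle tumor m1 at 10.9 CPM and the RCM1-NP FA tumor m9 at 11.5 CPM lay close to the treated tumors, and the treated tumors varied far less among themselves. The change was -0.80 (SE 0.17), and the DESeq2 adjusted p was 0.0214. *Ciart* is on chromosome 3 at 95878500 to 95882257.

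*Vegfa* ranged from 210 to 247 CPM with a median of 219 CPM with vincristine. Without it, levels ranged from 234 to 359 CPM with a median of 296 CPM. A single tumor not given vincristine, the RCM1-NP FA tumor m8 at 234 CPM, lay inside the range of those given it. The change was -0.42 (SE 0.09), with -0.54 in the vehicle background and -0.31 in the RCM1 background, and the DESeq2 adjusted p was 0.0421. *Vegfa* is on chromosome 17 at 46016993 to 46032377.

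**Figure D1:**
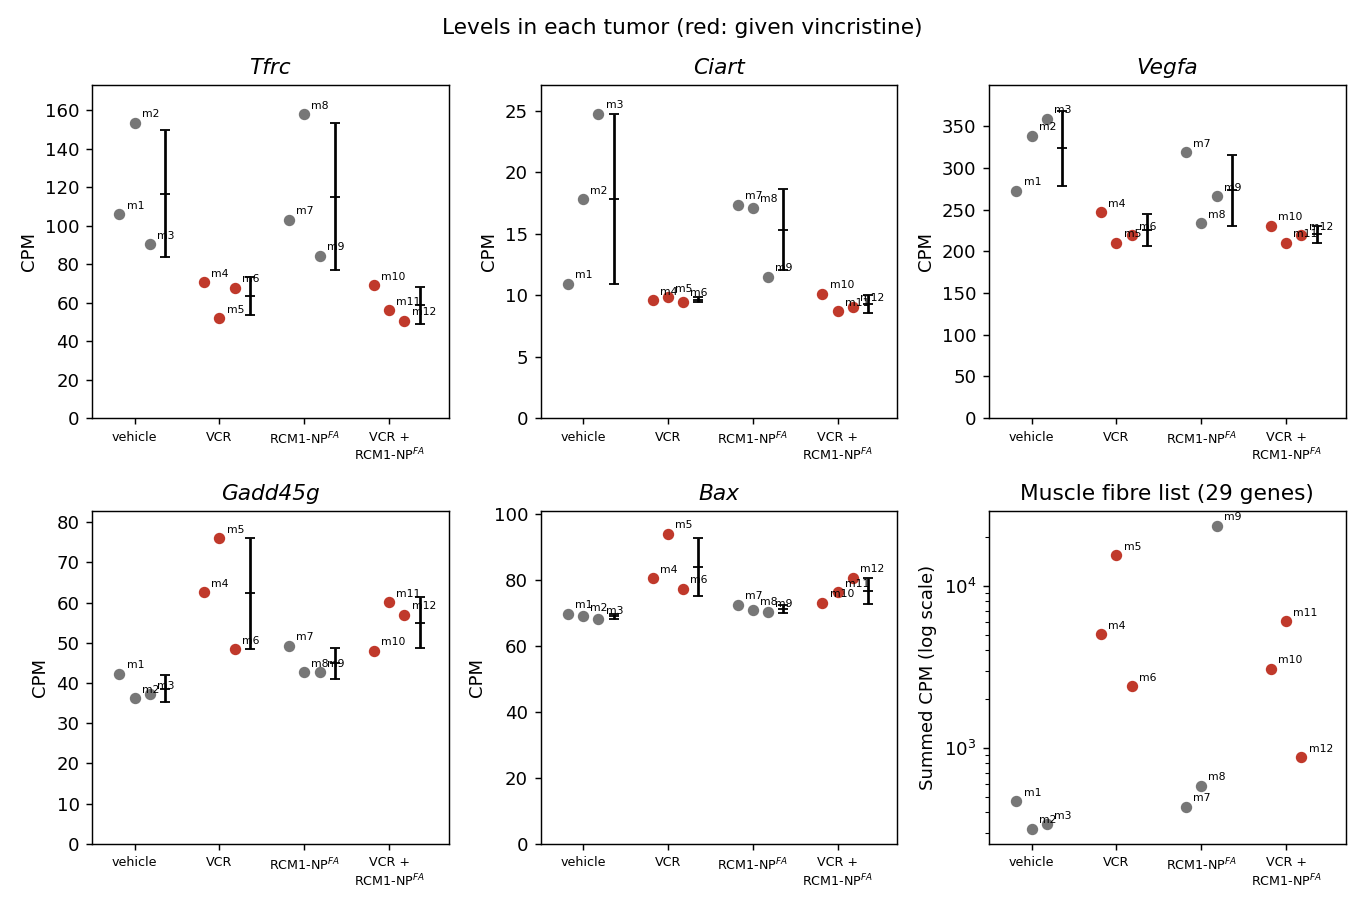
CPM of *Tfrc*, *Ciart*, *Vegfa*, *Gadd45g* and *Bax*, and the summed CPM of the muscle fibre list on a log axis, in each of the 12 tumors by group. Red points are tumors given vincristine, gray points the others, and bars show the mean and SD of 3 tumors; *Tfrc* was at or below 70.6 CPM in every red tumor and at or above 84.4 CPM in every gray one.

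Next to these, the genes with the smallest unadjusted p in each direction were taken among those with a mean of at least 2 CPM and the same sign in both backgrounds, and none of them was called by edgeR. The 10 lower genes included *Scd2*, a fatty acid desaturase, *St6gal1*, a sialyltransferase, *Rnf13*, an endosomal ubiquitin ligase, and *Spidr*, a homologous recombination factor, besides *Nt5dc3* and *Rlf*. *Scd2* had a mean of 609 ± 94.3 CPM (SD, n = 6) with vincristine and 801 ± 90.9 CPM (SD, n = 6) without it. *Rnf13* (-0.30), *St6gal1* (-0.23) and *Spidr* (-0.25) were lower in all 6 treated tumors than in all 6 others, by less than *Tfrc*. Genes that edgeR called without m9 included *Scd2*, *St6gal1*, *Rnf13* and *Spidr*, all lower, and *Trib1*, a pseudokinase that directs protein turnover, which was higher.

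The 10 higher genes were led by *Gadd45g*, a growth arrest and DNA damage gene, and *Zglp1*, and also held *Myd88*, the adaptor of Toll-like receptors, *Traf4*, *Trib1*, *Shkbp1*, *Nubp2*, *B3gat3*, *Aldh3b1* and *Podn*. *Gadd45g* ranged from 48.02 to 76.0 CPM with a median of 58.5 CPM with vincristine, and from 36.2 to 49.3 CPM with a median of 42.5 CPM without it. The ranges met only between the RCM1-NP FA tumor m7 at 49.3 CPM and the treated tumors m6 and m10 at 48.4 and 48.02 CPM, and the change was 0.49 (SE 0.12). *Podn*, a proteoglycan gene, changed by 1.03 (SE 0.27) in the fit, at a low level of 3.06 ± 1.14 CPM (SD, n = 6) with vincristine and 1.46 ± 0.442 CPM (SD, n = 6) without it. *Myd88* was higher in all 6 treated tumors than in the others, with 38.3 ± 2.07 CPM (SD, n = 6) against 32.4 ± 2.49 CPM (SD, n = 6). *Nubp2*, *Shkbp1* and *B3gat3* also had all 6 treated tumors above all 6 others. Over all genes tested, 27 had every vincristine tumor above every other tumor (0.153%) and 28 had every one below (0.159%).

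Among the targets of the drug, 12 of the 16 alpha and beta tubulin genes listed passed the filter on low counts, 10 were higher in the fit, 2 lower, and none was called. Per transcript length, *Tuba1b* was the most abundant, with a median of 1671 TPM, a scale corrected for transcript length, with vincristine and 1508 TPM without it. *Tubb5* followed at medians of 1086 and 1054 TPM, then *Tuba1a* at 581 and 558 TPM, and *Tuba1c* at 324 and 294 TPM. The *Tuba1b*, *Tubb5* and *Tuba1a* ranges overlapped broadly, whereas all 6 treated tumors had more *Tuba1c* (308 to 361 TPM) than all 6 others (264 to 299 TPM) on this scale. In CPM the *Tuba1c* ranges overlapped, at 330.5 to 447 CPM with vincristine and 304 to 351 CPM without it. The share of all genes without overlap was counted in CPM only. *Tuba1c* had a change of 0.20 (SE 0.07) in CPM, and *Tubb3*, the neuronal isotype, one of 0.39 (SE 0.15). Near-identical sequence means that reads can be split between tubulin copies, so single isotypes are less certain than the sum. Summed over the list, tubulins stood at 4992 ± 401 CPM (SD, n = 6) with vincristine and 4773 ± 504 CPM (SD, n = 6) without it, and the list median was 0.12, beside 0.003 over all genes tested. The sign of that median differed between backgrounds, 0.26 without RCM1 and -0.12 with it. *Tuba8*, a tubulin that adult muscle also makes, and *Tuba4a* were called higher by edgeR once m9 was left out. These were the 2 list genes called there, beside 1.61% of all genes tested. Without vincristine, *Tuba8* had a median of 0.114 CPM and reached 20.1 CPM, and *Tuba4a* had a median of 40.6 CPM and reached 108 CPM.

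The 22 tubulin folding and autoregulation genes were split, 12 higher and 10 lower, with a median of 0.01. *Tbcb*, a cofactor that folds alpha tubulin, had the smallest p of them, at 0.24 (SE 0.08). Of 28 microtubule stabilizers, tip trackers and destabilizers, 18 were higher and 10 lower, with a median of 0.04. *Stmn1*, the destabilizer stathmin, averaged 199 ± 14.0 CPM (SD, n = 6) with vincristine and 192 ± 19.6 CPM (SD, n = 6) without it. The RhoA, SRF and YAP targets, which respond to the release of RhoA activators from microtubules, had a median of -0.01, with 11 of 26 higher. EdgeR called no gene of these 3 lists in the fit of 12 tumors, where 1, 2 and 4 of their genes had an unadjusted p under 0.05, beside 3.64% of all genes tested higher and 3.74% lower.

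Mitotic genes were slightly higher in the mean with vincristine, and none was called. Of 42 spindle checkpoint and mitosis genes, 29 were higher and 13 lower, with a median of 0.05 (0.12 without RCM1, 0.00 with it), which lay between 0.03 (without m7) and 0.10 (without m8) with 1 tumor left out. *Aurka*, the spindle pole kinase, ranged from 51.7 to 73.2 CPM with a median of 60.2 CPM with vincristine, and from 42.9 to 58.2 CPM with a median of 50.5 CPM without it. *Plk1*, another mitotic kinase, ranged from 125 to 150 CPM with a median of 129 CPM, against 103 to 132 CPM with a median of 115 CPM. Both overlapped between groups, with changes of 0.25 (SE 0.09) and 0.19 (SE 0.07), and their effects were 0.45 and 0.34 without RCM1 but 0.04 and 0.02 with it, where the interaction had an edgeR adjusted p of 0.293 for each. *Top2a*, the most abundant member per length, and *Mki67*, the proliferation marker, were lower in the mean, at -0.09 (SE 0.10) for each, with -0.28 and -0.21 without RCM1, 0.08 and 0.01 with it, and -0.02 and -0.03 when m2 was left out. *Foxm1*, the target of RCM1, stood at 167 ± 8.15 CPM (SD, n = 6) with vincristine and 157 ± 16.3 CPM (SD, n = 6) without it, a change of 0.08 (SE 0.07). Of 38 DNA replication and S phase genes, 31 were higher, with a median of 0.05 that was 0.01 without m7 and 0.11 without m8, and *Ccne1*, the cyclin of S phase entry, had the smallest p, at 0.37 (SE 0.10).

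Within the BCL2 family and caspases, 16 of 24 genes were higher, with a median of 0.05. With 1 tumor left out, that median lay between 0.03 (without m9) and 0.07 (without m2). *Bax*, the pore-forming effector of mitochondrial apoptosis, stood at 80.6, 94.0 and 77.3 CPM in the VCR tumors and at 73.1, 76.3 and 80.7 CPM in the VCR + RCM1-NP FA tumors. It stood at 69.8, 69.0 and 68.2 CPM in the vehicle tumors and at 72.5, 70.9 and 70.2 CPM in the RCM1-NP FA tumors. All 6 treated tumors were above all 6 others, with m10 at 73.1 CPM nearest to the untreated m7 at 72.5 CPM. The change was small, at 0.20 (SE 0.06; edgeR adjusted p 0.655), and without m5 it was 0.15. *Bok* and *Bak1*, related effectors, had changes of 0.29 (SE 0.10) and 0.14 (SE 0.06). *Bcl2l11*, the activator BIM, was lower in the mean at -0.17 (SE 0.08), as was *Bcl2* at -0.16 (SE 0.08). Over 23 p53 targets, 9 were higher and 14 lower, with a median of -0.02. *Cdkn1a*, the p21 cell cycle inhibitor, averaged 45.9 ± 4.66 CPM (SD, n = 6) with vincristine and 41.7 ± 11.6 CPM (SD, n = 6) without it, and *Trp53* 272 ± 16.8 and 267 ± 24.2 CPM.

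Drug efflux genes did not move together. Of 10 transporters and vincristine metabolism genes tested, 4 were higher and 6 lower, with a median of -0.07 (-0.10 without RCM1, 0.06 with it) and none called. The list median was -0.04 without m9. *Abcb1b*, which encodes 1 of the mouse P-glycoproteins, had a median of 17.4 TPM both with and without vincristine, and ranged from 13.2 to 20.6 TPM with it and from 15.4 to 23.0 TPM without it. *Abcb1a*, the other P-glycoprotein gene, was far lower per length, at medians of 1.04 and 1.05 TPM. The treated and untreated ranges of both genes overlapped, and the changes were -0.09 (SE 0.10) and 0.06 (SE 0.19). The signs differed between backgrounds, with -0.34 without RCM1 and 0.14 with it for *Abcb1b* (interaction adjusted p 0.297) and 0.21 and -0.10 for *Abcb1a*, and without m5 the changes were -0.03 and -0.06.

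The hypoxia and glycolysis list lay on 1 side of 0, since all 24 of its tested genes were lower with vincristine, 13 of them at an unadjusted p under 0.05, beside 3.74% of all genes tested, and none called by edgeR. The median was -0.33, with -0.43 in the absence of RCM1 and -0.22 in its presence, and with 1 tumor left out it lay between -0.40 (without m8) and -0.22 (without m3), at -0.32 without m9. *Car9*, the carbonic anhydrase that regulates the pH of hypoxic tumors, stood at 43.7, 87.4 and 139 CPM in the vehicle tumors and at 95.7, 36.1 and 71.1 CPM in the RCM1-NP FA tumors. With vincristine it stood at 30.9, 29.8 and 43.8 CPM alone and at 38.9, 31.6 and 52.97 CPM with RCM1-NP FA. The treated tumors were all low, and the untreated ones were widely spread, with m1 and m8 inside the treated range. The change was -1.04 (SE 0.30). *Bnip3*, a mitophagy receptor, ranged from 73.4 to 106 CPM with a median of 87.6 CPM with vincristine, against 76.4 to 218 CPM with a median of 129 CPM. *Slc2a1*, the glucose transporter GLUT1, ranged from 117 to 172 CPM with a median of 135 CPM, against 118 to 354 CPM with a median of 199.5 CPM. In both genes the overlap came from the untreated tumor m8, and in *Slc2a1* also from m1, and the changes were -0.68 (SE 0.21) and -0.59 (SE 0.21).

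Other members of this list had changes of similar size to that of *Vegfa* or larger, among them *Ankrd37* (-0.66), *Ndrg1* (-0.51), *Pdk1* (-0.51), *Pfkl* (-0.47), *P4ha1* (-0.44), *Egln3* (-0.42), *Kdm3a* (-0.42) and *Hk2* (-0.39). The 12 members with smaller changes ran from *Pgk1* at -0.27 (SE 0.12) to *Pkm* at -0.07 (SE 0.08), *Aldoa* at -0.05 (SE 0.27) and *Gapdh* at -0.02 (SE 0.12). *Gapdh* and *Aldoa* were higher in the mean in the vehicle background, at 0.09 and 0.31, and lower in the RCM1 background, at -0.14 and -0.43, and leaving out m9 gave *Gapdh* a change of 0.05. *Vegfa* and *Kdm3a*, a histone demethylase induced by hypoxia, were called lower by edgeR without m9, with adjusted p of 0.0443 and 0.0747. These were the 2 list genes called there, beside 0.199% of all genes tested. In VCR against vehicle, edgeR called 4 of the 24 lower, beside 0.568%.

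**Figure D2:**
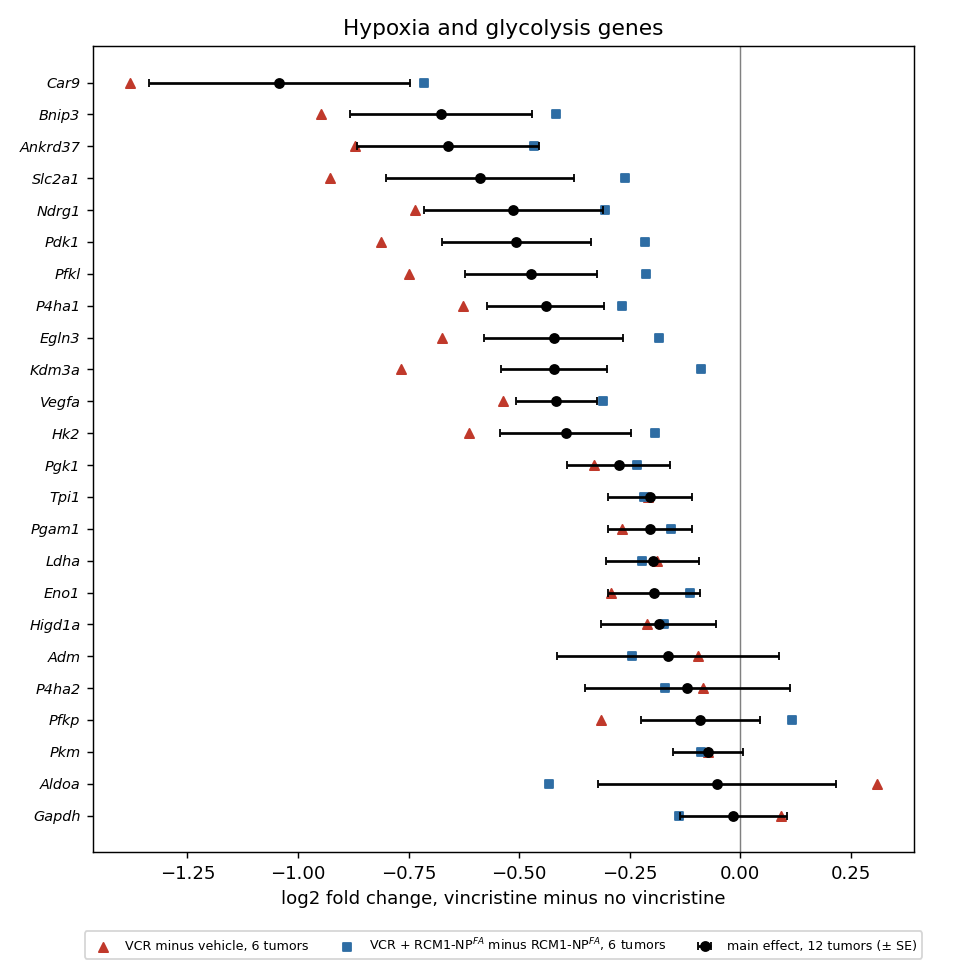
Log2 fold change of each of the 24 hypoxia and glycolysis genes, vincristine minus no vincristine, with the main effect over 12 tumors and its SE as black points and bars. Red triangles give VCR minus vehicle and blue squares VCR + RCM1-NP FA minus RCM1-NP FA, 6 tumors each; all 24 black points lie below 0, from -1.04 for *Car9* to -0.02 for *Gapdh*.

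Hypoxia-inducible factors bind a core of ACGTG or GCGTG, so the promoters of the list were searched for these letters on both strands. Windows ran from 250 bases before to 50 bases after each RefSeq transcript start (GRCm38.p6). Of the 23 list genes with a window, 22 (95.7%) held the letters in at least 1 window, beside 8346 of 13517 tested genes (61.7%), and by window the shares were 78.8% of 33 and 56.2% of 17242. The letters are not particular to this list, since the circadian clock list held them in 81.0% of its 21 windows and in 87.5% of its 16 genes. *Vegfa*, the member that fell in DESeq2, had 0 matches in the window at its gene start (chr17:46032328-46032627) and 2 in its other window. The promoters of *Car9*, at chr4:43506776-43507075 on the plus strand, *Bnip3*, at chr7:138909457-138909756 on the minus strand, and *Slc2a1*, at chr4:119108495-119108794 on the plus strand, are shown as promoters with matches of genes that had large changes in the list, with the matched letters of either strand in capitals. A match is a description of the letters and not evidence of binding.
Car9: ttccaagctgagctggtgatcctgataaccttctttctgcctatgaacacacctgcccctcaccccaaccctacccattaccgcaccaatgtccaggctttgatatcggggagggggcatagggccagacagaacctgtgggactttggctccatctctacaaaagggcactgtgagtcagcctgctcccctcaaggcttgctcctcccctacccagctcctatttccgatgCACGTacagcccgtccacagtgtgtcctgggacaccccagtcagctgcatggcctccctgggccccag
Bnip3: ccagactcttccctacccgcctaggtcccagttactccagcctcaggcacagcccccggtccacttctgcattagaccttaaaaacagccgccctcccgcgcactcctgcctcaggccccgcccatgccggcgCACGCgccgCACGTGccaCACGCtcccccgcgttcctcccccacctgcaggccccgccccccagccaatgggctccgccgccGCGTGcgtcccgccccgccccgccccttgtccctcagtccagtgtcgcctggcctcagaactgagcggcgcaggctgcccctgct
Slc2a1: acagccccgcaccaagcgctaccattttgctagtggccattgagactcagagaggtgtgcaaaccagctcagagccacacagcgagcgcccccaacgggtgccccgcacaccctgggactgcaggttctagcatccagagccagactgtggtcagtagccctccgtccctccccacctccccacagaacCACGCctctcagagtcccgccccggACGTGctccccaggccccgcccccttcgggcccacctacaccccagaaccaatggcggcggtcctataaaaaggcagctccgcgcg

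Of 18 circadian clock genes, 14 were lower and 4 higher, with a median of -0.14, and *Ciart* was the only one that passed a test. *Npas2*, a relative of *Clock*, had a change of 0.91 (SE 0.43) in the other direction at a low level, with 0.574 ± 0.188 CPM (SD, n = 6) with vincristine and 0.303 ± 0.169 CPM (SD, n = 6) without it, and its arms overlapped. *Bhlhe41*, a clock repressor, was at -0.34 (SE 0.14), and *Per1*, a light-responsive period gene, at -0.44 (SE 0.26), while the core activators *Clock* (0.02, SE 0.12) and *Arntl* (-0.05, SE 0.12) and the repressor *Nr1d1* (0.01, SE 0.16) were near 0. The hours at which tumors were taken are not given for single animals, so their part in the *Ciart* difference was not tested. CLOCK and its partner bind CACGTG, a word that reads the same on both strands and contains ACGTG, and it was found in 5 of 16 clock genes with a window (31.2%) beside 10.7% of tested genes, and in 28.6% of their windows beside 9.0% of all windows. The promoter of *Ciart*, at chr3:95882179-95882478 on the minus strand (RefSeq, GRCm38.p6), is shown as that of the clock gene that fell in DESeq2, and it holds 3 copies, in capitals.
Ciart: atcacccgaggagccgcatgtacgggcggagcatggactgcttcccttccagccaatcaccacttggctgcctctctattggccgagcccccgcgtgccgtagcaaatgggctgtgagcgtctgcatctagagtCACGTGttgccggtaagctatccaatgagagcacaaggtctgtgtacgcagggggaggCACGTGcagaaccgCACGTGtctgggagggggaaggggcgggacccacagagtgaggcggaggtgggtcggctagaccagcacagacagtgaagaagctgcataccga

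Several stress programs were lower or unmoved in the mean. ATF4 stress response genes were lower in 18 of 22, with a median of -0.19 (-0.29 without RCM1, -0.03 with it) and none called. The median was -0.08 without the vehicle tumor m3, which had the highest summed level of that list (3369 CPM), and -0.27 without m1. *Trib3*, a pseudokinase induced by ATF4, ranged from 17.9 to 27.6 CPM with a median of 18.8 CPM with vincristine, against 16.0 to 50.7 CPM with a median of 30.9 CPM, a change of -0.65 (SE 0.22). *Chac1*, which degrades glutathione and which the study followed up in the combination group from these same tumors, stood at 10.51, 21.7 and 30.6 CPM in the vehicle tumors, 21.1, 13.2 and 11.2 CPM with VCR, 10.7, 19.2 and 12.8 CPM with RCM1-NP FA and 10.9, 7.82 and 7.01 CPM with both. Its tumors overlapped between the arms, and the change was -0.59 (SE 0.26; edgeR adjusted p 0.655), with a two-sided p of 0.11 in the exact permutation test within RCM1 background. Endoplasmic reticulum chaperones had 7 of 18 genes higher and a median of -0.04, and heat shock genes 4 of 16 higher and a median of -0.03. Of the heat shock genes, edgeR called 2 higher in VCR against vehicle, beside 2.02% of all genes tested. Without m9 it called 2 of them higher in the main effect, beside 1.61%. Immediate early genes had 15 of 21 higher and a median of 0.07, between 0.03 (without m2) and 0.17 (without m7) with 1 tumor left out, with *Junb* at 274 ± 34.2 CPM (SD, n = 6) with vincristine and 219 ± 32.9 CPM (SD, n = 6) without it. Of 21 cholesterol synthesis and uptake genes, 20 were lower, with a median of -0.15. Leaving out the RCM1-NP FA tumor m8, which had the highest summed level of that list (2857 CPM), changed the median to -0.05. Cytosolic ribosomal protein genes had a median of -0.01, with 26 of 38 lower. Nuclear oxidative phosphorylation genes were higher in 43 of 44, with a median of 0.14 (0.29 without RCM1, -0.02 with it) and none called. It was 0.08 without m5, which had the highest summed level of that list and much muscle RNA.

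Muscle fibre transcripts had the largest median of all 35 lists in the fit of 12 tumors, and it rested on which tumors held muscle RNA. Of 29 mature muscle fibre genes 28 were tested, 27 were higher and 1 lower, the median was 2.28 and none was called by edgeR. The summed level of the list was 467, 317 and 338 CPM in the vehicle tumors and 5032, 15504 and 2403 CPM in the VCR tumors. It was 433, 583 and 23452 CPM in the RCM1-NP FA tumors and 3076, 6067 and 878 CPM in the VCR + RCM1-NP FA tumors. All 6 tumors given vincristine were thus above 5 of the 6 not given it, and the highest level of all was in the RCM1-NP FA tumor m9. Without m9 the median was 5.08 and edgeR called 21 of the 28 higher, beside 1.61% of all genes tested, while without the vehicle tumor m2 it was 0.70, and in a fit without the RCM1 term it was 0.36. Since m9 was the only tumor without vincristine high in these genes, leaving it out raises their change by construction. The calls without m9 are therefore no test of them. *Acta1*, skeletal actin and the most abundant member per length (TPM), stood at 99.2 to 2107 CPM with a median of 646.5 CPM with vincristine, and at 0.403 to 3029 CPM with a median of 21.6 CPM without it. Of the defining fibre markers, *Myh4*, a fast myosin, was at 0 in the vehicle tumors m2 and m3, and *Pvalb*, parvalbumin, was at 0 in m3. In bulk RNA, fewer cells of a type and less RNA per cell cannot be told apart, and the part of muscle tissue around the tumor in these values was not tested.

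Split by background and with every tumor kept, edgeR called genes for vincristine in the absence of RCM1 and none in its presence. In VCR against vehicle, 456 genes were called by edgeR, 356 higher (2.02%) and 100 lower (0.568%), of which 23 of the higher ones belong to the muscle fibre list. That count was 4 without the vehicle tumor m2 (*Hspb1*, *Hspb7*, *Mt3* and *Myog*, all higher), 476 without m1, 656 without m3, 235 without m4, 214 without m5 and 742 without m6. The balance of directions was not stable either, since 318 were higher and 338 lower without m3, 226 and 9 without m4, and 207 and 7 without m5, and a 4-group fit of all tumors gave 493 and 484. In VCR + RCM1-NP FA against RCM1-NP FA, edgeR called 0 genes, with 399 at an unadjusted p under 0.05 and 13 called by DESeq2, and edgeR called 1 lower gene without m8 (*Tmem254c*) and 1 without m9 (*Hbb-bt*). Between the backgrounds, edgeR's interaction test called 0 of 17602 genes (0%), with a smallest adjusted p of 0.293 and 2437 genes at an unadjusted p under 0.05, limma-voom called 0 and DESeq2 called 461. Without m7, edgeR's interaction test called 1 gene, *Fhl1*. Of the 356 genes called higher without RCM1, 65 (18.3%) were higher with RCM1 too, with a median there of -0.78, beside 47.9% of all genes tested. When m9 was left out of the RCM1 background, 325 of the 356 (91.3%) were higher there, with a median of 1.63, beside 49.3% of all genes tested. Of the 100 genes called lower without RCM1, 52 (52%) were higher with it and 50 (50%) when m9 was left out, beside the same 47.9% and 49.3%, so as a set the lower calls kept their direction about as often as any gene did, though *Tfrc*, *Vegfa* and *Scd2* among them were lower in both backgrounds. The 2 backgrounds share no tumor.

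*Des*, the muscle intermediate filament desmin, showed the pattern in a single gene. It stood at 10.02, 7.76 and 11.4 CPM in the vehicle tumors and at 197, 429 and 134 CPM in the VCR tumors. It stood at 11.7, 18.1 and 572 CPM in the RCM1-NP FA tumors and at 120, 201 and 55.0 CPM in the VCR + RCM1-NP FA tumors. The 6 treated tumors were above all untreated tumors but m9. The main effect was 1.96 (SE 1.47), with 4.68 without RCM1 (edgeR adjusted p 0.00898) and -0.68 with it, and the interaction of -5.38 had an adjusted p of 0.293. Without m9 the main effect was 3.94, without the vehicle tumor m2 it was 1.16, and in a fit without the RCM1 term it was 0.85. Embryonic muscle genes and regulators, 18 tested, had 12 higher and a median of 0.27 (0.81 without RCM1, -0.02 with it), which lay between 0.19 (without m1) and 0.47 (without m12) with 1 tumor left out and near 0 among genes with a mean of at least 50 counts. *Myog* had the smallest p of them, at 2.71 (SE 0.84), with levels from 0.487 to 2.16 CPM with vincristine and from 0 to 0.975 CPM without it. *Myf5* (0.05, SE 0.08), a regulator that was present at 48.8 CPM or more in every tumor, had a change near 0. Of these 18 genes edgeR called 7 higher in VCR against vehicle, beside 2.02% of all genes tested. It called 6 higher in the main effect without m9, beside 1.61%, where m9 was the tumor with the highest summed level of this list.

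**Figure D3:**
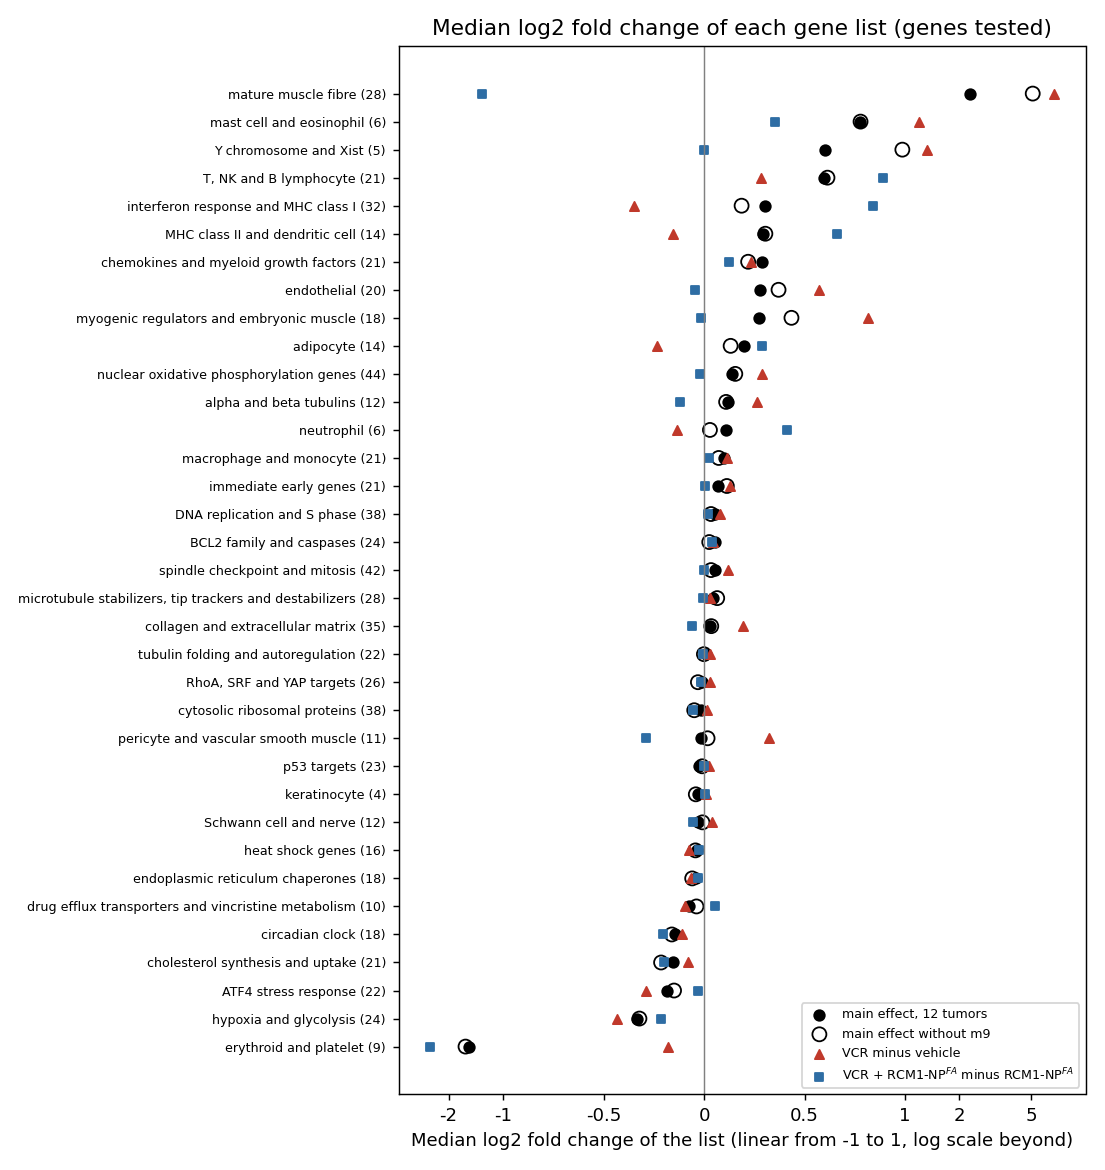
Median log2 fold change of each of the 35 gene lists, vincristine minus no vincristine, with the number of genes tested in parentheses; the axis is linear from -1 to 1 and logarithmic beyond. Filled circles are the main effect over 12 tumors, open circles the same without m9, triangles VCR minus vehicle and squares VCR + RCM1-NP FA minus RCM1-NP FA; the muscle fibre list moves from 2.28 to 5.08 without m9, and the hypoxia list from -0.33 to -0.32.

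Vessel genes were higher in the mean with vincristine alone. Of 20 endothelial genes, 18 were higher in the main effect, with a median of 0.28, 0.57 in the absence of RCM1 and -0.04 in its presence, and it was 0.18 without m5, whose summed level (607 CPM) stood apart from the other treated tumors and which also held much muscle RNA. *Pecam1*, an endothelial adhesion molecule, stood at 47.2 to 66.0 CPM with a median of 50.31 CPM with vincristine, and at 35.4 to 55.8 CPM with a median of 48.7 CPM without it, and the ranges overlapped. EdgeR called 3 of the 20 higher in VCR against vehicle, beside 2.02% of all genes tested, and none of them without m2. They were the receptor *Eng*, the nitric oxide synthase *Nos3* and the transcription factor *Sox18*, with main effects of 0.31 (SE 0.11), 0.43 (SE 0.18) and 0.39 (SE 0.19). The interaction of each with RCM1 had an edgeR adjusted p of 0.293. *Plvap*, the most abundant endothelial gene of the list per transcript length (TPM), averaged 55.9 ± 10.98 CPM (SD, n = 6) with vincristine and 47.5 ± 10.6 CPM (SD, n = 6) without it. Pericyte and vascular smooth muscle genes had a median of -0.02, with 5 of 11 higher, which was 0.32 without RCM1 and -0.29 with it and changed sign in 11 of the 12 fits with 1 tumor left out. Collagen and extracellular matrix genes had one of 0.03 (0.19 without RCM1, -0.06 with it), with 21 of 35 higher. *Fn1*, fibronectin, was lower in the mean at -0.41 (SE 0.12), and *Postn*, periostin, higher at 0.71 (SE 0.30).

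Immune lists were higher in the mean, with wide spread in both arms. All 21 lymphocyte genes tested were higher, with a median of 0.60, and their summed level ran from 20.3 to 94.5 CPM with vincristine and from 13.2 to 92.4 CPM without it. Among the untreated tumors m1 stood apart from the other 5, and the list median was 1.11 without it and 0.40 without the treated tumor m12. All 14 genes for MHC class II and dendritic cells were higher, with a median of 0.29 (-0.16 without RCM1, 0.66 with it), and it was 0.75 without m1 and 0.08 without m12. *Cd74*, the invariant chain, ranged from 67.3 to 1293 CPM without vincristine, the highest in m1. Interferon response and MHC class I genes had 31 of 32 higher and a median of 0.30, with -0.35 in the absence of RCM1 and 0.84 in its presence, and 0.03 without m12. Treated and untreated tumors overlapped in the summed level of each of these 3 lists, and edgeR called none of their genes in the 12 tumors.

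Macrophage and neutrophil lists had smaller medians. Macrophage and monocyte genes had 15 of 21 higher and a median of 0.10, which was 0.04 without m12, and *Apoe*, the most abundant of them, averaged 1849 ± 259 CPM (SD, n = 6) with vincristine and 1781 ± 580 CPM (SD, n = 6) without it. *Ly6c2*, a marker of inflammatory monocytes, was at 0.97 (SE 0.36). Neutrophil genes had 5 of 6 higher and a median of 0.11, which was -0.05 without m1. Chemokines and myeloid growth factors had 18 of 21 higher and a median of 0.29, which was 0.14 without m12, but the summed level of the list, to which *Cxcl12* (-0.09, SE 0.09) and *Csf1* (-0.15, SE 0.09) add most, had a median of 1604 CPM with vincristine and 1658 CPM without it. The smallest p were those of *Ccl2*, a chemokine for monocytes, at 0.44 (SE 0.12), and *Ccl7* at 0.64 (SE 0.23). Mast cell and eosinophil genes had 5 of 6 higher and a median of 0.78, at low levels, which was 0.50 without m3. *Cma1*, mast cell chymase, ranged from 0.576 to 2.64 CPM with vincristine and from 0.101 to 0.692 CPM without it, and the treated tumor m12 at 0.576 CPM overlapped the others.

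Blood, fat, skin and nerve transcripts showed how far single tumors differed. The summed erythroid and platelet list stood at 257, 339 and 38.2 CPM in the vehicle tumors, 452, 66.7 and 37.5 CPM with VCR, 367, 205 and 119 CPM with RCM1-NP FA and 39.9, 37.9 and 62.5 CPM with both. Treated tumors were low except m4, and m3 was low among the untreated ones. Its median was -1.53 with 4 of 9 genes higher, -2.54 in the presence of RCM1 and -0.18 in its absence, and -2.51 without m4. *Hbb-bs*, a beta globin whose near-identical copy *Hbb-bt* can share reads, had a change of -2.27 (SE 1.28; edgeR adjusted p 0.655). Without m4 the *Hbb-bs* change was -4.59. Adipocyte genes had 13 of 14 higher and a median of 0.20, but -0.34 without m10 and -0.23 in VCR against vehicle. Keratinocyte genes, 4 tested of 15, had a median of -0.03, with *Krt5* at 0 in 6 tumors, and Schwann cell and nerve genes one of -0.03 with 5 of 12 higher. The 5 genes of the Y chromosome and Xist list had a median of 0.60, which was 0.30 without m1, 1.255 without m3, 1.32 without RCM1 and 0.00 with it, and *Eif2s3y*, a Y-linked gene, stood at 6.62 CPM or above in m3, m4, m6, m8, m9, m11 and m12 and at 0.571 CPM or below in the others. Tumors with and without Y-linked transcripts thus occurred in every group.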

How the data were processed

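RNA from 12 bulk tumors was measured by poly-A RNA sequencing. The authors ran kallisto on the mouse transcriptome (GRCm38) and deposited, per RefSeq transcript, estimated counts, TPM and the effective length in bases. Per the labels a stranded kit was used to make non-stranded libraries, so antisense and overlapping genes cannot be told apart. All 120299 transcripts matched a gene of the RefSeq table (GRCm38.p6), and estimated counts were summed into 38898 genes and rounded for the fits. TPM were summed likewise.

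Genes passing filterByExpr (minimum count 10) numbered 17602. The additive model with RCM1 and vincristine terms was fitted with edgeR 4.0.16 (TMM, quasi-likelihood F test) in R 4.3.3, with Benjamini-Hochberg adjustment over all genes tested and a threshold of 0.1, as in the authors' DESeq2 work. The interaction and each RCM1 background (3 against 3 tumors) were fitted likewise. DESeq2 1.42.0 and limma 3.58.1 were alternatives. Single genes also had an exact two-sided permutation test on log2(CPM + 0.1) within RCM1 background. The fits were tested on counts simulated from an additive design, where tumors alike in treatment differed only by depth and random spread. That setting is unlike these tumors, whose muscle RNA differed widely, so it does not show how the fits perform here. Other alternatives were the size factors, no filter, a mean of at least 50 counts, a 4-group fit, no RCM1 term, a term for Y-linked transcripts, robust estimation, length offsets, a threshold of 0.05, and leaving out tumors.

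Named genes were the 10 highest and 10 lowest changes among called genes with a mean of at least 2 CPM and the same sign in both backgrounds, filled by the smallest unadjusted p where too few were called, then from each of 35 lists the most abundant member per length or the member called with the smallest p, then *Foxm1*, *Mki67*, *Chac1*, *Pecam1*, *Abcb1a*, *Abcb1b*, *Cdkn1a* and the 4 most abundant tubulins. All other genes named were chosen after their values were seen. A few genes of this choice are not reported here. Members and lists were chosen with earlier results of these data known. Promoters come from RefSeq. Python 3.11.15, pandas 2.3.3, numpy 2.4.6 and matplotlib 3.10.9 were used.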

Additional observations from a re-analysis of the deposited data

Results flagged for a closer look

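In each arm of 6 tumors, the gap between the highest or lowest tumor and its nearest neighbor was compared with the range of the arm, and a share above Dixon's 95% critical value for 6 samples marked a tumor far from the others. Of 202 arms looked at, 29 had such a tumor. Chance marks about 1 in 20 groups, and genes and lists that share RNA of the same cells are not independent of each other.

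The RCM1-NP FA tumor m9 was the highest of the arm without vincristine in 7 of the 29, mostly muscle genes. *Acta1* stood at 3029 CPM there, against 0.403 to 42.6 CPM in the other untreated tumors, *Des* at 572 CPM against 7.76 to 18.1 CPM and *Tpm1*, a tropomyosin, at 3758 CPM against 1920 to 2529 CPM. The summed muscle fibre list stood at 23452 CPM against 317 to 583 CPM, the myogenic and embryonic muscle list at 1155 CPM against 495 to 612 CPM, the pericyte and vascular smooth muscle list at 1042 CPM against 340 to 572 CPM, and the RhoA, SRF and YAP targets at 7759 CPM against 6253 to 6541 CPM.

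In the vehicle tumor m1, 8 values were the highest of the untreated arm, all of immune genes or lists. *B2m* stood at 1108 CPM against 354 to 569 CPM, *Cd74* at 1293 CPM against 67.3 to 326 CPM, *Il1b* at 12.4 CPM against 3.71 to 5.95 CPM and *Nkg7*, a cytotoxic granule gene, at 5.74 CPM against 0.437 to 1.73 CPM. The summed lists stood at 6928 CPM for interferon response and MHC class I, 2978 CPM for MHC class II and dendritic cells, 92.4 CPM for lymphocytes and 35.4 CPM for neutrophils, against at most 3109, 763, 33.8 and 24.0 CPM in the other untreated tumors.

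Within the tumors given vincristine, m5 was the highest for the muscle fibre list (15504 CPM against 878 to 6067 CPM), the endothelial list (607 CPM against 447 to 478 CPM), the pericyte and vascular smooth muscle list (925 CPM against 516 to 647 CPM), *Pecam1* (66.0 CPM against 47.2 to 52.0 CPM) and *Bax* (94.0 CPM against 73.1 to 80.7 CPM), and the lowest for *Rnf13* (45.9 CPM against 52.3 to 54.6 CPM). Tumor m4 was the highest for *Hbb-bs* (155 CPM against 1.53 to 7.04 CPM) and the erythroid and platelet list (452 CPM against 37.5 to 66.7 CPM), and the lowest for *Bhlhe40*, a clock repressor (68.6 CPM against 88.5 to 94.2 CPM). Tumor m10 was the lowest for *Apoe* (1362 CPM against 1826 to 2089 CPM) and *Tubb5* (1498 CPM against 1699 to 1803 CPM), and m12 for *Foxm1* (151 CPM against 167 to 172 CPM). Among the untreated tumors, m2 was the highest for *Spidr* (39.5 CPM against 31.5 to 33.9 CPM) and m8 for *Tuba1b* (1908 CPM against 1391 to 1529 CPM).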

How the results depend on the processing

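For the main effect, the count of called genes was 0 in edgeR under the other size factors, filters, models, robust estimation, length offsets and the 0.05 threshold, and in limma-voom. DESeq2 called 3 genes at 0.1 and 3 at 0.05, the latter threshold chosen after seeing the data. In edgeR, leaving out m5 and m9 together gave 259. Leaving out 1 tumor at a time in edgeR gave 0 to 318, where all but m9 gave 0. For the interaction, DESeq2 called 461 and leaving out 1 tumor gave 0 to 1. VCR against vehicle had 977 calls in the 4-group fit, 1538 in DESeq2 and 4 to 742 with 1 tumor left out. VCR + RCM1-NP FA against RCM1-NP FA had 13 calls in DESeq2 and 0 to 1 with 1 tumor left out. The cause of these differences was not tested. Of the genes called in any fit, the sign was followed only for named ones. *Tfrc*, *Ciart* and *Vegfa*, called by DESeq2 for the main effect, kept theirs in every setting. Of 715 values of 65 named genes under the other settings, 11 passed the threshold and 12 changed sign, in 7 genes; of 780 values with 1 tumor left out, 11 passed and 31 changed sign, in 11 genes. The 20 genes named by their p changed sign in none of these. They were chosen for a small p and the same sign in both backgrounds of these tumors. A kept sign is therefore no test of them, *Tfrc*, *Ciart* and *Vegfa* included. *Tfrc* lay between -0.97 and -0.89 under the other settings and between -1.02 and -0.79 with 1 tumor left out. List medians changed sign in 11 of 383 values (7 lists) and, with 1 tumor left out, in 34 of 420 (9 lists), both added after seeing the data. At a mean of at least 50 counts, the neutrophil and mast cell lists had too few genes for a median. Of the genes called higher in VCR against vehicle, 12.6% to 91.3% were higher in the RCM1 background with 1 of its tumors left out, a setting chosen after seeing the data, the highest without m9. The median of all genes lay between -0.0136 (without m9) and 0.00722 (limma-voom). Scaling itself holds that median near 0, so it is no test of the scaling. No paired analysis was possible because the tumor labels give no replicate numbers shared between the groups.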
